A study of Mus musculus with 4 samples.

Results

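The distal end of mouse chromosome 2 was examined in liver tumours of Fah-/- Trp53-/- mice by array comparative genomic hybridisation, which compares the amount of DNA in a tumour with that in normal tissue at many short probes. The stretch holds every probe of chromosome 2 whose midpoint lies at or beyond 156.8 Mb (mm9), 1637 of the 170305 probes of the array, and 264 gene names have at least 1 probe in it. It was chosen from the readout, the log2 ratio of tumour over normal signal, because that ratio stood higher there than on the rest of the chromosome. The levels below therefore describe the stretch and carry no test. Tumours 239, 240, 244 and 252 came from 4 individual mice without Fah, the last enzyme of tyrosine breakdown, and without Trp53, the gene of the p53 tumour suppressor. Such mice are kept alive by NTBC, which blocks an earlier step of tyrosine breakdown, and the labels give a drinking-water dose of 7.5 mg/L that was reduced to 2.5% of normal for 6 months. The comparison DNA was a single pool made from the livers of 3 Fah+/+ Trp53+/+ littermates of the same labelled sex, so the spread among normal livers was not measured. Tumour DNA carried Cy5 and the pool Cy3 on all 4 arrays, which lay on 1 slide, and no array had the dyes the other way round.

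A library that went against its label has to be named first. Tumour 252 was labelled male, as was the pool, yet its median log2 ratio was 0.73 on X and -2.43 on Y. Tumours 239, 240 and 244 had X medians of -0.09, -0.11 and -0.30 and Y medians of -0.31, -0.14 and -1.20. The main values over tumours are therefore also given without tumour 252. The noise of a single autosomal probe, a robust SD estimated from the differences between neighbouring probes, was 0.25, 0.31, 0.34 and 0.35 in tumours 239, 240, 244 and 252.

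In a diploid cell each autosomal gene is present once on each homologue, and tumours often gain or lose whole chromosome arms, which changes the dose of many genes at once. The mouse stretch matches much of the long arm of human chromosome 20, whose gain is common in human colorectal cancer. It carries Src and other growth genes, the liver regulator Hnf4a, the imprinted Gnas cluster and a cluster of small protease inhibitor genes. A gain of 1 copy in every cell of a diploid tumour would give a log2 ratio of 0.58. A larger gain in fewer cells and a smaller gain in more cells cannot be told apart in DNA of a whole tumour piece.

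The probes that border the cut at 156.8 Mb are shown first, since the position of the step rests on such single measurements. Their sequences are those of the array's own annotation, in lower case, and the files do not give their strand. The last 2 outside and the first 3 inside lie in 3 neighbouring genes. Ndrg3 belongs to the NDRG family of hydrolase-like proteins, Dsn1 encodes a part of the kinetochore complex that ties chromosomes to the spindle, and Soga1 encodes a protein first described as a regulator of autophagy by adiponectin.
Ndrg3, chr2:156789489-156789548, outside: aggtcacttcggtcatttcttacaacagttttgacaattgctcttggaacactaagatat
Ndrg3, chr2:156797173-156797232, outside: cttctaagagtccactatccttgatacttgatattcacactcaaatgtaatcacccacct
Ndrg3, chr2:156814992-156815051, inside: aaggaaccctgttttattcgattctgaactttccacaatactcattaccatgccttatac
Dsn1, chr2:156830580-156830639, inside: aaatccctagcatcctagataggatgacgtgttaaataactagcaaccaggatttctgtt
Soga1, chr2:156841618-156841677, inside: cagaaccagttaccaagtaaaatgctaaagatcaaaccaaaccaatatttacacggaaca
The Dsn1 probe read 0.48, 0.30, 0.29 and 0.10 in tumours 239, 240, 244 and 252, and its neighbour in Ndrg3, the first probe inside the cut, read -0.15, -0.01, 0.16 and 0.16. The Dsn1 probe was the higher of the 2 in tumours 239, 240 and 244 and the lower in tumour 252. Single probes are this noisy, so the levels below are means over many.

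Distal chromosome 2 stood above the rest of the chromosome in all 4 tumours, and by more than 2 times as much in tumour 239 as in any of the other 3. The mean log2 ratio over its probes was 0.20, 0.16, 0.17 and 0.09 in tumours 239, 240, 244 and 252, against 0.01, 0.08, 0.10 and 0.01 over the 11090 probes of the rest of the chromosome. The SD over the distal probes was 0.33, 0.38, 0.40 and 0.42, so single probes of the 2 stretches overlapped widely. Within each array the distal mean exceeded that of the rest by 0.20, 0.09, 0.08 and 0.08. The values of tumours 240, 244 and 252 lie close together and that of tumour 239 lies apart. Over the 4 tumours the difference averaged 0.11 ± 0.06 (SD, n = 4), without tumour 239 it averaged 0.08 ± 0.0050 (SD, n = 3), and without tumour 252 it averaged 0.12 ± 0.07 (SD, n = 3). If the rest of the chromosome is taken to be at 2 copies, the distal stretch corresponds to 2.29, 2.12, 2.11 and 2.11 copies per cell on average. All 4 lie below the 3 copies of a gain in every cell. The share of distal probes above 0 was 79.8%, 69.3%, 70.4% and 60.2%, against 55.4%, 62.1%, 63.2% and 52.1% on the rest of the chromosome. With normexp, an alternative background correction, the distal means were 0.12, 0.08, 0.12 and 0.01 and the excess over the rest was 0.16, 0.05, 0.03 and 0.04, so the heights depend on that step. Tumour 239 had the largest excess over the rest under every alternative tried, but not always the highest distal mean, which with arrays centred on the mode was 0.17 in tumour 239 and 0.18, 0.16 and 0.07 in tumours 240, 244 and 252.

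**Figure D1:**
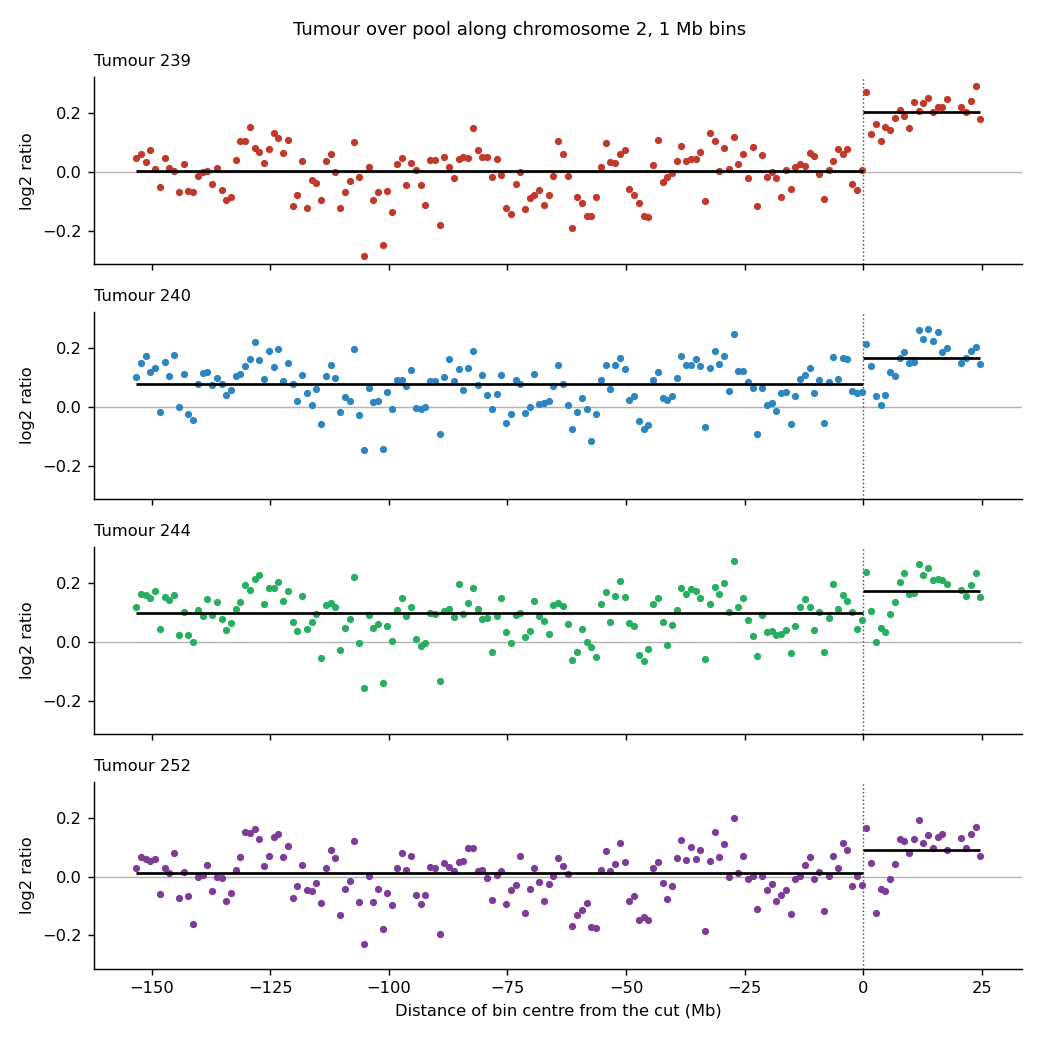
Mean log2 ratio of tumour over pool (vertical axis) in 1 Mb bins of chromosome 2 with at least 5 probes, by distance of the bin centre from the cut in Mb (horizontal axis), 1 panel per tumour. Points are bins, black lines are the means over probes on each side and the dotted line is the cut. The first bin beyond the line is high in every panel, at 0.27, 0.21, 0.24 and 0.17. In tumour 239 the bins after it stay at 0.11 or more, while in the other 3 panels some of them return to 0.04 or less.

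All 4 tumours rose at the cut itself, and over 5 Mb the rise lasted in tumour 239 alone. The 84 probes of the first 1 Mb beyond the cut averaged 0.26, 0.25, 0.26 and 0.19 in tumours 239, 240, 244 and 252, against -0.05, 0.0052, 0.03 and -0.07 over the 103 probes of the last 1 Mb before it. The rise was thus 0.31, 0.24, 0.23 and 0.26, with no tumour far from the others. Over 2 Mb on each side it was 0.26 in tumour 239 and 0.15, 0.14 and 0.14 in tumours 240, 244 and 252, and over 3 Mb it was 0.26, 0.14, 0.13 and 0.13. The difference between tumour 239 and the others thus depends on the length of the window. The first whole 1 Mb bin beyond the cut read 0.27, 0.21, 0.24 and 0.17. The highest bin before the cut read 0.15, 0.25, 0.27 and 0.20, which is above it in tumours 240, 244 and 252. Rises between neighbouring bins in all 4 tumours were also seen away from the cut. The bin centred at -33.3 Mb from the cut read -0.10, -0.07, -0.06 and -0.18. The next bin, at -32.3 Mb, read 0.13, 0.13, 0.13 and 0.05. A rise in all 4 tumours was thus not particular to the cut. The last 1 Mb before the cut held genes far below 0 in every tumour, such as ENSMUST00000117381 at -1.01 over 3 probes. It also held genes above 0 in every tumour, such as Aar2 at 0.18. Their part in the rise was not tested. The 5 Mb just beyond the cut averaged 0.17 in tumour 239, against 9.4e-05 in the 5 Mb just before it. In tumour 240 the same windows averaged 0.10 and 0.09, in tumour 244 they averaged 0.10 and 0.09, and in tumour 252 they averaged 0.03 and 0.02. Over 5 Mb the difference across the cut was 0.17 in tumour 239, and 0.01, 0.01 and 0.0049 in tumours 240, 244 and 252. Its mean of 0.05 over the 4 tumours dropped to 0.0088 without tumour 239 and was 0.06 without tumour 252. Under the alternatives tried it ran from 0.14 to 0.18 in tumour 239, and the values of tumours 240, 244 and 252 stayed between -0.03 and 0.01.

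A split of each array's chromosome 2 probes into 2 levels by least squares placed the boundary in different genes. In tumour 239 it fell at 156.83 Mb, at the Dsn1 probe shown above, with a level of 0.20 after it and 0.01 before it, so that 1636 of the 1637 probes lay beyond it. Tumours 240 and 244 had their boundary at 164.28 Mb, at a probe outside named genes, with levels of 0.20 after and 0.08 before in tumour 240 and of 0.21 after and 0.10 before in tumour 244. For tumour 252 it lay at 163.57 Mb, in Ada, with 0.13 after and 0.01 before. The mean of the 4 tumours also split at the Ada probe, with 0.19 after and 0.05 before, and it did so without tumour 252 too. The boundary of the mean is that of tumour 252 and lies 6.77 Mb beyond the cut. Under 3 levels, tumour 239 kept its boundary at 156.83 Mb and gained another at 36.10 Mb, in the proximal part of the chromosome. The other tumours added a boundary at 35.89 to 36.10 Mb too, and the distal boundary of tumour 244 moved from 164.28 to 163.58 Mb. With normexp the boundary of tumours 240 and 252 moved to 112.77 Mb, and that of tumour 244 and of the mean to 161.75 Mb. The boundary of the mean ran from 161.75 to 164.28 Mb under the alternatives, so its place in Ada is that of the main setting. The boundary of tumour 239 stayed between 156.78 and 157.0 Mb under every alternative. The boundary near 36 Mb was therefore found in all 4, and the one in Dsn1 in tumour 239 alone.

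Since all arrays used the same pool, the same dye order and the same probes, subtracting one tumour's log2 ratio from another's takes out what the arrays share. This was done for all 6 pairs of tumours, after the profiles had been seen. The 3 pairs with tumour 239 changed level close to the cut. Tumour 239 minus tumour 240 split at 156.46 Mb, in Dlgap4, with a difference of 0.04 after and -0.07 before. Tumour 239 minus tumour 244 split at 157.12 Mb, in Rpn2, with 0.03 after and -0.09 before, and tumour 239 minus tumour 252 split again at 156.46 Mb, with 0.11 after and -0.01 before. These 3 boundaries span 0.66 Mb and lie on either side of the cut. The pairs without tumour 239 split far away, at 138.45 Mb for tumour 240 minus tumour 244 and at 24.10 Mb for both of the others, with level changes of 0.01, -0.02 and -0.02. The distal-minus-rest value of tumour 239 exceeded that of tumours 240, 244 and 252 by 0.11, 0.12 and 0.12, and the other 3 pairs differed by 0.01, 0.0050 and -0.0049. The pairs that involve tumour 239 share that tumour and are not separate evidence.

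**Figure D2:**
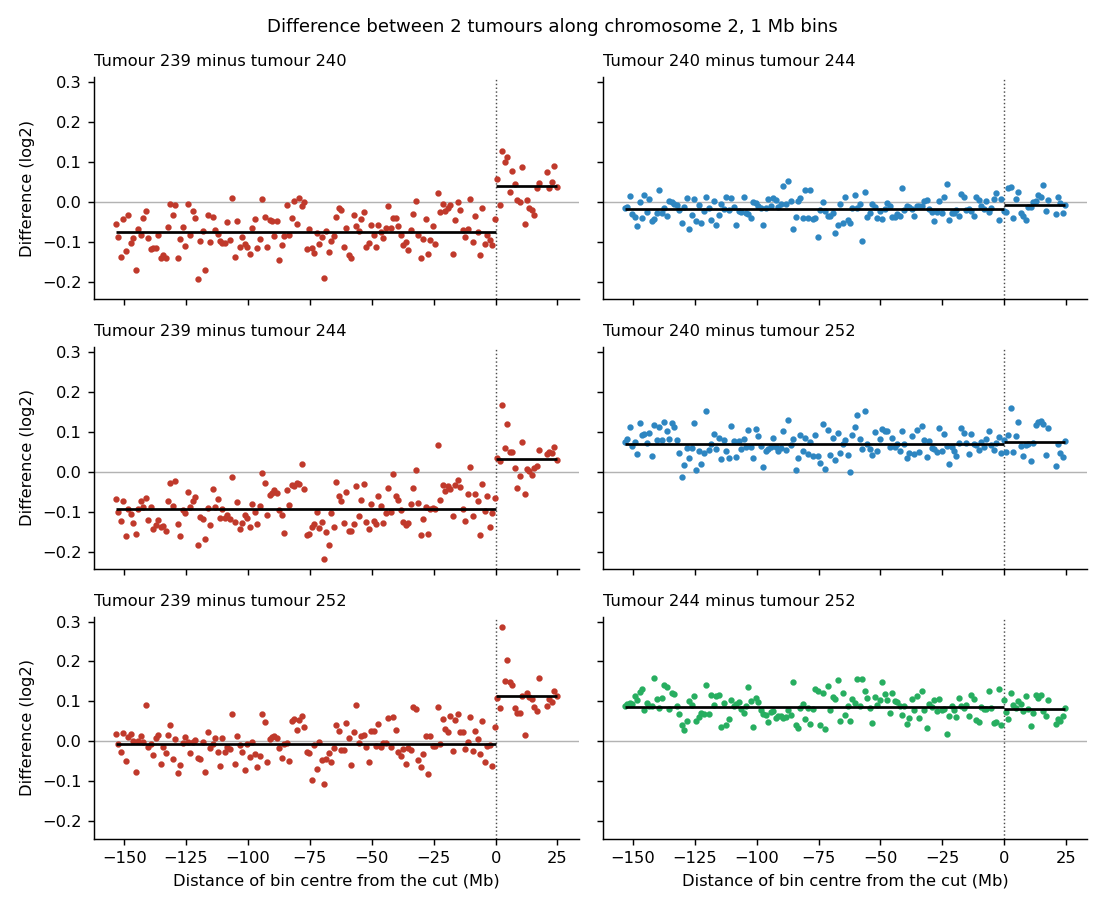
Difference in log2 ratio between 2 tumours (vertical axis) in 1 Mb bins of chromosome 2 by distance from the cut in Mb (horizontal axis), for all 6 pairs. Points are bins, black lines are the differences of the means on each side and the dotted line is the cut. The 3 pairs with tumour 239, in the left column, sit 0.11 to 0.12 higher beyond the cut than before it, and the 3 pairs in the right column are level across it.

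The order of the tumours also changed from bin to bin. In 1 Mb bins tumour 239 exceeded tumour 240 in 18 of 23 distal bins, against 7 of 153 bins of the rest of the chromosome. It exceeded tumour 244 in 19 of 23 distal bins, against 4 of 153, and tumour 252 in 23 of 23, against 63 of 153. Tumour 239 was the highest of the 4 in 16 distal bins, against 3 bins of the rest, and the lowest in 0 distal bins, against 90 of the rest. Tumour 252 was the lowest in all 23 distal bins, and it was the lowest in 63 of the 153 others. Tumour 244 exceeded tumour 252 in 23 of 23 distal bins and in 153 of 153 of the rest, an order that did not change at the cut. The counts move with the centring, since each array shifts by its own constant. Tumour 239 was the highest in 10 distal bins, against 0 bins of the rest, with arrays centred on the mode, and in 23, against 35, with arrays centred on the rest of chromosome 2. Under that last centring the distal mean of tumour 252 was 0.072, above the 0.069 and 0.063 of tumours 240 and 244. With arrays centred on the mode the distal mean of tumour 252 was 0.07, below the 0.17, 0.18 and 0.16 of tumours 239, 240 and 244. The low place of tumour 252 thus held under that centring. It was lost when arrays were centred on the rest of chromosome 2. Neighbouring bins of 1 array are not independent, and these counts are given as a description.

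Beyond the cut the level was not flat. In windows of 5 Mb from the cut to the end of the probes, tumour 239 averaged 0.17, 0.18, 0.22, 0.23 and 0.24, the last window ending at 181.7 Mb. Tumour 240 averaged 0.10, 0.15, 0.21, 0.22 and 0.18 and tumour 244 averaged 0.10, 0.17, 0.22, 0.21 and 0.19. The level of tumour 252 was 0.03, 0.07, 0.13, 0.13 and 0.13. In tumours 240, 244 and 252 the windows increased over the first 3, whereas tumour 239 was already at 0.17 in the first. Tumour 239 was higher than tumours 240 and 244 by 0.07 in the first window beyond the cut and by 0.0095 and 0.0075 in the third. A break of 2.85 Mb without probes, between 174.98 and 177.83 Mb, lies in the last 2 windows.

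**Figure D3:**
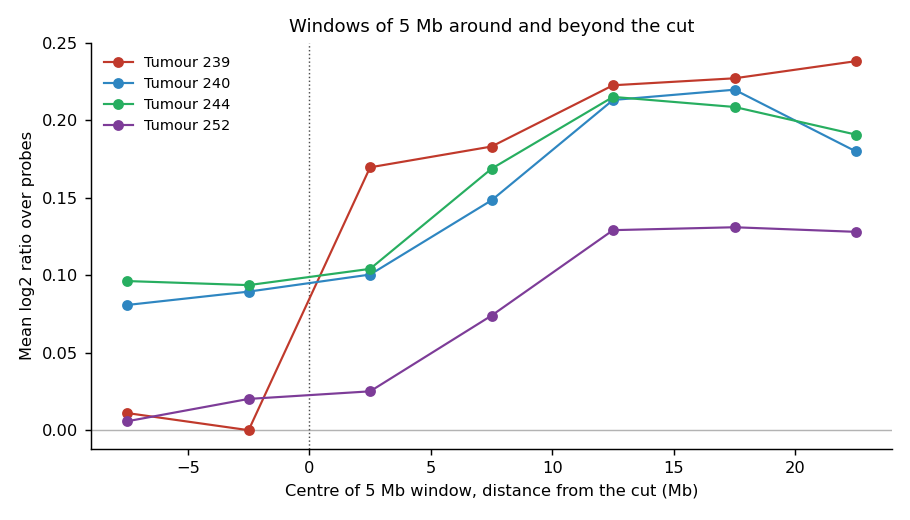
Mean log2 ratio over probes (vertical axis) in 5 Mb windows from 10 Mb before the cut to the end of the chromosome, by distance of the window centre from the cut in Mb (horizontal axis), 1 line per tumour. Tumour 239 stands at 0.17 in the first window beyond the dotted line, against 9.4e-05 in the last before it. The other 3 lines climb over the first 3 windows beyond the cut.

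The gap between tumour 239 and each of the others was widest in the bin from 159 to 160 Mb. In that bin, which had 34 probes, the log2 ratio was 0.16 in tumour 239 and 0.04, -0.0013 and -0.12 in tumours 240, 244 and 252. From 160 to 161 Mb, in the bin that holds Top1 and Plcg1, it was 0.11, 0.0065, 0.05 and -0.04. The bin from 161 to 162 Mb lies mostly inside Ptprt and read 0.15, 0.04, 0.03 and -0.05. In these 3 bins tumour 239 was at 0.11 or more, tumours 240 and 244 were at 0.05 or less, and tumour 252 was below 0. From 168 to 173 Mb, by contrast, tumours 239, 240 and 244 all lay between 0.20 and 0.27 in every bin. The bin values of 2 tumours correlated at r = 0.72 to 0.95 over the 23 distal bins and at 0.83 to 0.95 over the 153 others. All bins share the pool, the dyes and the slide, so these correlations are descriptions.

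Gene by gene, the levels next to the cut were higher beyond it in all 4 tumours and did not single out tumour 239. Dlgap4, a scaffold protein of synapses whose 16 probes end 0.21 Mb before the cut, averaged -0.03, -0.03, -0.0034 and -0.10 in tumours 239, 240, 244 and 252. Ndrg3 straddles the cut with 1 of its 6 probes inside, and it averaged -0.25, -0.12, -0.08 and -0.16. Tumour 239 was not above the other 3 in either gene. Soga1, with 8 probes just inside, averaged 0.31, 0.31, 0.33 and 0.22, and Rbl1, the p107 relative of the retinoblastoma protein, averaged 0.25, 0.23, 0.29 and 0.13 over 6 probes. These first genes beyond the cut were above 0 in all 4 tumours, and tumour 239 did not stand apart in them. It did on the near side of the cut in Phf20, a chromatin reader with 12 probes that end 0.67 Mb before it. Phf20 averaged 0.03 in tumour 239 and 0.28, 0.29 and 0.15 in tumours 240, 244 and 252. Epb41l1, listed under its older name, is a membrane skeleton gene whose probes end 0.44 Mb before the cut, and it had 0.20, 0.26, 0.26 and 0.17 over 11 probes, so high genes lie on both sides of the cut. Mroh8, which encodes a HEAT repeat protein and begins 0.24 Mb beyond it, ran the other way, with 0.05 in tumour 239 and 0.32, 0.45 and 0.22 in the others over 7 probes. Src, the founding member of its tyrosine kinase family, had 0.37, 0.26, 0.12 and 0.15 over 5 probes at chr2:157253833-157291443, but a mean of -0.24 over tumours under the normexp background correction. The 7 genes with a single probe among the last 12 before the cut spread from -1.48 to 0.75 over genes and tumours.

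**Figure D4:**
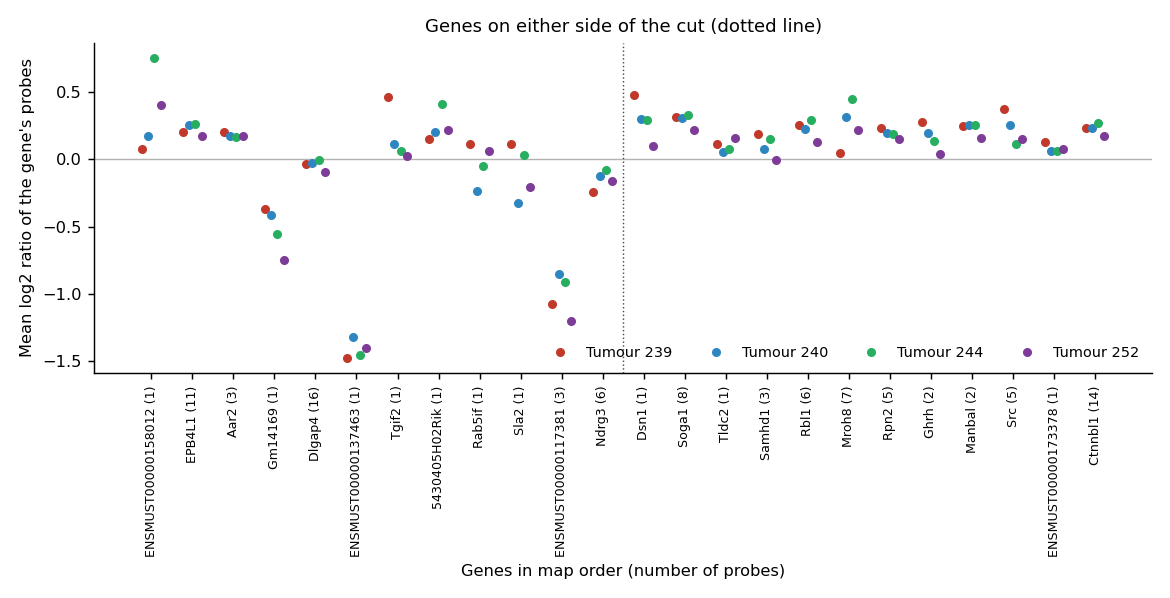
Mean log2 ratio of each gene's probes (vertical axis) for the 12 genes before and the 12 genes beyond the cut in map order (horizontal axis, number of probes in brackets), 1 point per tumour. All 12 genes beyond the dotted line average above 0 over the tumours, and genes before it range from -1.41 to 0.35. The large negative values belong to genes of 1 to 3 probes and are alike in all 4 tumours.

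Further in, Ptprt has 119 probes over 1.13 Mb, the most of any gene of the stretch. Neighbouring probes of 1 array are not independent, so this number alone does not make its level firm. Ptprt encodes a receptor tyrosine phosphatase that is mutated in human colorectal cancer. Its mean was 0.15 in tumour 239, 0.05 in tumour 240, 0.05 in tumour 244 and -0.06 in tumour 252. With the arrays centred on the rest of chromosome 2 its mean over tumours was -0.02, against 0.05 with the autosomal centring, so its sign depends on the centring. Tumour 239 was the highest in Ptprt under all 3 centrings, with 0.11 and -0.04, -0.06 and -0.07 in tumours 240, 244 and 252 under that of the rest of chromosome 2.

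Of the 7 genes with at least 3 probes from Top1 to L3mbtl1, tumour 239 was the highest in 5, the exceptions being Lpin3 and L3mbtl1. Lpin3, a phosphatidate phosphatase, averaged 0.23, 0.17, 0.34 and 0.29 in tumours 239, 240, 244 and 252 over 3 probes. Chd6, a chromatin remodeller with 18 probes, averaged 0.13, -0.01, 0.07 and -0.01, and its mean over tumours also turned negative, to -0.02, when arrays were centred on the rest of chromosome 2. Plcg1, the phospholipase that relays growth factor receptor signals, averaged 0.23, -0.0018, 0.05 and 0.04 over 6 probes. Top1, the topoisomerase that relaxes DNA ahead of polymerases, averaged 0.09, -0.0078, -0.0099 and -0.08 over 7 probes, with a mean near 0 that changed sign under 4 alternatives. Tumour 239 was the highest of the 4 in Chd6, Plcg1 and Top1. Ralgapb, a subunit of a RAL GTPase-activating complex, had 0.13, -0.04, -0.21 and -0.09 over 9 probes and was among the genes with the widest range over tumours. Lbp and Bpi, neighbouring genes whose proteins bind bacterial lipopolysaccharide, were among the highest of the stretch. Lbp averaged 0.61, 0.35, 0.52 and 0.39, and Bpi averaged 0.33, 0.58, 0.58 and 0.35, each over 3 probes. Tumour 239 was thus the highest in Lbp and the lowest in Bpi next to it.

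The region at 163 to 164 Mb, where the mean of the tumours split, had no common edge. Jph2, a protein that joins the cell membrane to internal calcium stores, averaged 0.25, 0.33, 0.36 and 0.25 over 7 probes before that boundary, although its mean over tumours was -0.04 under normexp. Hnf4a, a nuclear receptor that sets hepatocyte identity, averaged 0.18, -0.07, -0.12 and -0.17 over 3 probes. Its antisense neighbour Hnf4aos averaged 0.12, -0.19, -0.26 and -0.35 over 4 probes, with a mean over tumours of -0.17 that became 0.15 under normexp. Serinc3, a multi-pass membrane protein, averaged -0.0087, 0.02, -0.0052 and -0.16. Pkig, an inhibitor of protein kinase A, averaged 0.09, 0.07, 0.16 and 0.11 over 6 probes, with a mean of -0.17 under normexp. In Hnf4a and Hnf4aos tumour 239 alone was above 0, while in Jph2 and Pkig all 4 tumours were.

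Ada, which encodes adenosine deaminase of purine breakdown, holds the boundary of the mean between its 2 probes, shown here for that reason.
Ada, chr2:163557261-163557320, before the boundary: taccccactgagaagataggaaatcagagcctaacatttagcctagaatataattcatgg
Ada, chr2:163567366-163567425, after the boundary: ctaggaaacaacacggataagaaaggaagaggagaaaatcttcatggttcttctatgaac
The second probe read 0.90, 0.34, -0.03 and 0.43 in tumours 239, 240, 244 and 252, and the first read 0.07, -0.40, -0.46 and -0.56. The second was the higher in every tumour, by 0.43 to 0.98. These same values helped to place the boundary, so the difference is no evidence for it. Beyond it, Rims4, a presynaptic protein, averaged 0.15, 0.13, 0.20 and 0.05 over 5 probes, and Stk4, a kinase of the Hippo pathway, averaged 0.30, 0.22, 0.17 and 0.05 over 6. Neither Rims4 nor Stk4 was below 0 in any tumour. Between Ada and Rims4 lie Ccn5 and ENSMUST00000109396, with 1 probe each, and both were below 0 in some tumours. Ccn5 read 0.20, -0.08, -0.02 and -0.36 in tumours 239, 240, 244 and 252, and ENSMUST00000109396 read -0.12, 0.21, 0.50 and 0.72.

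From 164 Mb to the end, 125 of 185 genes were above 0 in all 4 tumours, which is 67.6%. Between the cut and 164 Mb this held for 39 of 78, and on the rest of the chromosome for 45.3% of genes. The border at 164 Mb lies next to the split of tumours 240 and 244 at 164.28 Mb. That split was placed from these same ratios to part lower from higher values. The larger share beyond the border is therefore no evidence of a change there. Among growth genes, Sulf2, an enzyme that trims heparan sulphate, averaged 0.21, 0.22, 0.34 and 0.24 over 9 probes, and Ncoa3, a coactivator of nuclear receptors, averaged 0.16, 0.14, 0.22 and 0.10 over 8. Ptpn1, a phosphatase that acts on the insulin receptor, averaged 0.41, 0.21, 0.16 and 0.30 over 5 probes. Zfp217, the mouse form of a gene amplified in human breast cancer, averaged 0.26, 0.38, 0.45 and 0.28 over 3. No tumour had a value below 0 in any of these 4. Tshz2, a zinc finger homeobox gene, averaged 0.31, 0.27, 0.29 and 0.16 over 25 probes, and Pmepa1, a dampener of TGF-beta signalling, averaged 0.43, 0.34, 0.37 and 0.31 over 6. Cdh4, a cadherin of the nervous system and the gene with the most probes at this end, averaged 0.28, 0.29, 0.25 and 0.20 over 48 probes. Tumour 239 differed from tumour 240 by -0.0051 in Cdh4 and by 0.10 in Ptprt, the 2 genes with the most probes.

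Some genes beyond 164 Mb were close to 0. Prex1, an activator of RAC, averaged 0.14, 0.07, 0.05 and -0.03 over 14 probes, and Dido1, a chromatin-bound protein, averaged 0.13, -0.04, 0.07 and -0.02 over 6. Both had a mean over tumours that was negative under 3 alternatives. Myt1, a neural zinc finger gene close to the last probe, averaged 0.03, 0.07, -0.02 and -0.03 over 8 probes, with a mean that changed sign under 3. Aurka, the mitotic kinase Aurora A, had a single probe, which read 0.20, -0.13, -0.05 and -0.19. The lowest gene with at least 3 probes was Hnf4aos and the next was Ncoa5, a nuclear receptor coactivator, with -0.14, -0.11, -0.29 and -0.13. Rab22a, an endosomal GTPase, averaged -0.12, -0.02, -0.10 and -0.22 over 4 probes. In Ncoa5 and Rab22a all 4 tumours were below 0, although both lie well inside the stretch.

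Over all genes placed by the mean position of their probes, 164 of the 263 distal genes were above 0 in all 4 tumours, which is 62.4%, against 45.3% of the 1304 genes of the rest of chromosome 2. The median gene mean was 0.16, against 0.09 on the rest of the chromosome and 0.02 over all 18702 genes. Without tumour 252, 185 distal genes, or 70.3%, were above 0 in the other 3 tumours, and the median gene mean was 0.19. Tumour 239 gave the highest value of the 4 in 132 distal genes, or 50.2%, against 19.6% of the genes of the rest. With arrays centred on the mode it led in 115 distal genes, and with arrays centred on the rest of chromosome 2 in 163. Its share was 94 of 185 genes beyond 164 Mb and 38 of 78 between the cut and 164 Mb, so it led about as often near the cut as further out. Tumours 240, 244 and 252 gave the highest value in 17.5%, 24.3% and 7.98% of the distal genes, against 26.7%, 41.3% and 12.4% of the rest. The median distal gene stood at 0.24, 0.16, 0.19 and 0.12 in the 4 tumours, against 0.05, 0.10, 0.12 and 0.05 on the rest of the chromosome. Of the 263 genes, 105 had 1 probe and 109 had at least 3, so many single-gene values rest on few measurements.

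Read by function, each of the 5 lists of genes inside the stretch had a median above 0 in every tumour. The lists were drawn up with earlier results of these arrays known. Of 44 growth and cell cycle genes listed, 36 had probes in the stretch and 25 of those were above 0 in all 4 tumours. Their median was 0.22, 0.19, 0.20 and 0.14 in tumours 239, 240, 244 and 252, beside 0.24, 0.16, 0.19 and 0.12 for all distal genes. Of 26 liver and metabolic genes, 21 had probes and 13 were above 0 in all tumours, with medians of 0.30, 0.18, 0.23 and 0.14. In this group Acot8, a peroxisomal thioesterase, had 0.45, 0.37, 0.56 and 0.46 over 2 probes. Ptgis, which makes prostacyclin, had 0.20, -0.11, -0.07 and -0.10 over 4.

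The smaller lists rested on fewer probes. Of 7 names listed as imprinted genes 3 had probes, and 2 of these were above 0 in all tumours. Whether each listed gene is imprinted in the mouse was not examined. The Gnas gene, which encodes the stimulatory G protein subunit, averaged 0.24, 0.16, 0.15 and 0.05 over 4 probes, and L3mbtl1, a histone-binding protein of the Polycomb type, averaged 0.26, 0.29, 0.16 and 0.16 over 3. Of 28 names in the protease inhibitor cluster 8 had probes, mostly 1 each, and 6 were above 0 in all 4 tumours, Spint5 being below 0 in each with -0.09, -0.07, -0.12 and -0.40. Of 22 neural receptor and channel genes 18 had probes and 15 were above 0 in all 4. Among them Ntsr1, a neurotensin receptor, averaged 0.40, 0.26, 0.37 and 0.22 over 5 probes, and Phactr3, a regulator of protein phosphatase 1 and actin, averaged 0.26, 0.16, 0.19 and 0.17 over 21. Of 18 genes listed for the border just before the cut 15 had probes, Dsn1 inside it included, and 7 were above 0 in all 4. The median of this border list was 0.03, 0.11, 0.06 and 0.12 in tumours 239, 240, 244 and 252, lowest in tumour 239. Without tumour 252 the genes above 0 in all tumours were 30 of 36 growth genes, 15 of 21 liver genes, 2 of 3 imprinted genes, 7 of 8 protease inhibitor genes, 15 of 18 neural genes and 7 of 15 border genes. The share over all distal genes was then 70.3%. Bcl2l1, an inhibitor of apoptosis whose probes end 4.16 Mb before the cut, averaged 0.08, 0.09, 0.03 and 0.15 over 7 probes.

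A test of each 1 Mb bin against 0 over the 4 tumours (limma, Benjamini-Hochberg over the genome, adjusted p under 0.05) called 15 of the 23 distal bins higher and 0 lower, where 19 had an unadjusted p under 0.05. Over the genome 4.6% of 2541 bins were called higher and 8.5% lower. The same test over genes called 117 of the 263 distal genes higher and 8 lower, against 17.6% and 15.1% of all 18702 genes. By list, it called higher 19 of the 36 growth genes, 9 of the 21 liver genes, 1 of the 3 imprinted genes, 5 of the 8 protease inhibitor genes, 11 of the 18 neural genes and 3 of the 15 border genes, and none was called lower. The rule that chose the stretch used the same ratios, so nothing is read from these counts. They moved with single arrays and with the background correction: without tumour 239 or without tumour 240 the test called 0 distal bins (16 and 15 had an unadjusted p under 0.05), without tumour 252 it called 4, and with normexp it called 2.

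The probes of the stretch were set beside those of the rest of the chromosome in the properties that the files give. Their mean GC content was 36.97%, against 36.70% on the rest, and 62.3% lay in a named gene, against 64.9%. Median spacing was 10.4 kb, against 10.7 kb. The mean log2 brightness over both colours was 9.89, against 9.95, and 96.7% of the probes were well above background on every array, against 98.4%. Single probes carried offsets that repeated in all tumours and were far larger than the step. The lowest distal probe, at chr2:160759477-160759536, read -4.93, -4.72, -4.42 and -4.95, and the highest, at chr2:157490273-157490332, read 2.07, 1.79, 1.77 and 1.60. The cause of such values and their part in the height of the stretch were not tested, and no array of normal liver against normal liver was analysed here.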

How the data were processed

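Members and gene lists were chosen with earlier results of these data known, and the windows beside the cut, the tumour pairs and the counts of tumour order under other centrings were added after the profiles had been seen. Per the submitters' processing notes the image software was Agilent Feature Extraction 12.0.0, while the file headers give 12.0.1.1. Per the file headers, the deposited processed intensity of each colour is background-subtracted and dye-normalised, raw mean and background intensity are scanner brightness, and the log10 ratio is tumour over pool. That log10 ratio is also what the authors' value table gives. Positions are mm9, as the files give them.

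From the deposited intensity columns, control spots and 95 to 120 outlier spots of each array were dropped, repeated spots were averaged per probe, and the log2 ratio of tumour to pool was centred on the autosomal median. Genes are means of their probes. Of 263 distal gene names, 201 were current symbols and 11 were synonyms in RefSeq's gene table for GRCm38.p6, which served names only. One listed gene is not reported here. The named genes were members of the lists, the 3 genes on either side of the cut and of the mean split, and, with at least 3 probes, the 5 highest, the 5 lowest and the 5 of widest range. Phf20, Hnf4a, Lpin3, Zfp217, Aurka, Acot8, Ptgis, Gnas, L3mbtl1 and Spint5 are list members picked from their lists with their values known, and Rpn2, Tgif2 and Epb41l1 lie near the cut. Genes, and 1 Mb bins holding 5 probes or more, were tested against 0 in an intercept-only limma fit (limma 3.58.1, R 4.3.3), after a check on simulated data. The SD, n and p-values measure the spread between 4 tumours against a single pool. The number of arrays limits the precision. The remaining steps ran in Python 3.11.15 (statsmodels 0.14.6, pandas 2.3.3, numpy 2.4.6) and plots in matplotlib 3.10.9. Alternatives covered centring, normexp background correction with an offset of 50, the value table, trends on brightness and probe GC, a filter on dim probes, medians, outlying probes drawn in, a cut 2 Mb earlier or 7 Mb later, 1 Mb bins, robust limma and leaving out each tumour. Slide and scan were the same for all arrays, so no batch could be tested.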

Additional observations from a re-analysis of the deposited data

Results flagged for a closer look

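Of 54 sets of 4 tumour values tested for a sample far from the other 3, 6 had one. Chance alone gives about 1 in 20 for values chosen without regard to the data, which these were not. The first 3 below describe 1 step, measured at a boundary that was itself chosen from these ratios, and are no separate evidence of it. Tumour 239 stood apart, above the rest, in the distal-minus-rest difference with 0.20 and in the difference between the 5 Mb after and the 5 Mb before the cut with 0.17. The position of its split, 156.83 Mb, also lay apart, below those of the other 3 tumours. Tumour 252 lay below the others in Soga1 with 0.22 and in Serinc3 with -0.16. Tumour 244 lay above the others in Zmynd8, a chromatin reader, with 0.24. These single-gene values are those of the autosomal centring, and each array shifts by its own constant under another, so such gaps depend on it. With arrays centred on the rest of chromosome 2 the distal mean was 0.072 in tumour 252, and 0.069 and 0.063 in tumours 240 and 244. With the autosomal centring these were 0.09, 0.16 and 0.17. No reason was tested for any of the 6.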

How the results depend on the processing

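The distal-minus-rest difference stayed above 0 in each tumour under every alternative, at 0.16 to 0.21 in tumour 239, 0.05 to 0.12 in tumour 240, 0.03 to 0.11 in tumour 244 and 0.04 to 0.12 in tumour 252, and its mean ran from 0.07 to 0.14. The distal mean moved to 0.069 in tumour 240 and 0.063 in tumour 244 when arrays were centred on the rest of chromosome 2, and to 0.12, 0.085, 0.12 and 0.014 in tumours 239, 240, 244 and 252 with normexp. With normexp the split of tumours 240 and 252 lay at 112.77 Mb, and that of tumour 244 and of the mean at 161.75 Mb. The distal bins called higher fell to 4 with arrays centred on the rest of chromosome 2 and to 2 with normexp, and ran from 0 to 18 when each tumour was left out. The genes called higher were 75 under that centring and 57 among genes with at least 3 probes, of which fewer were tested, and ran from 65 to 99 when each tumour was left out. Genes called lower were 36 with normexp and 1 among genes with at least 3 probes, and ran from 4 to 11 when each tumour was left out. The shares over all genes and bins are given for the main setting only, so nothing is read from these counts. The cause was not tested where none is named.

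Of 686 alternative values for single genes 32 changed sign. When arrays were centred on the mode this was Myt1 at -0.0051. Centred on the rest of chromosome 2 they were Chd6 at -0.019, Ptprt at -0.016, Ada at -0.027, Prex1 at -0.0071, Dido1 at -0.029 and Myt1 at -0.055. With normexp they were Src at -0.24, Top1 at 0.059, Jph2 at -0.041, Hnf4aos at 0.15, Pkig at -0.17, Ada at -0.17, Ccn5 at 0.17, ENSMUST00000109396 at -0.64, Zmynd8 at -0.16, Prex1 at -0.043, ENSMUST00000127006 at 0.056 and Dido1 at -0.014. With probes well above background only they were Top1 at 0.0010 and Cse1l at -0.074. With medians over probes they were Ralgapb at 0.0026, Top1 at 0.022, Serinc3 at 0.091, Prex1 at -0.039, Cse1l at -0.026 and Dido1 at -0.10. Leaving out each tumour in turn gave ranges of -0.11 to 0.13 for Ada, lowest without tumour 239, and of -0.010 to 0.023 for Myt1, lowest without tumour 240. The ranges were -0.032 to 0.023 for Top1, -0.058 to 0.0015 for Serinc3 and -0.16 to 0.031 for Ccn5, each highest without tumour 252. Another 13 values passed the limma threshold that the main one missed and 69 missed a threshold that it passed.

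No paired analysis was possible because there is 1 group of tumours against a single pool, with 1 array each. The arrays had no dye swap, the pool gives no spread among normal livers, and 105 of 263 genes rest on 1 probe. Of the distal probes 96.7% were well above background on every array.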
